A study of Homo sapiens with 8 samples.

Results

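The genes described here are the translation initiation and elongation factors: every entry of the deposited table whose symbol begins with EIF1 to EIF6 or with EEF1 or EEF2, the kinases of eIF2 alpha included. The prefixes matched 72 entries; 5 symbols that end in P plus a number (EEF1DP3, EIF3IP1 and the 3 eIF4E-binding protein genes EIF4EBP1, EIF4EBP2 and EIF4EBP3) and 4 antisense transcripts were left out, which leaves 63 genes of 26902 entries. They were chosen by name and not by their values. All 63 matched a symbol of the RefSeq annotation. The study profiled ribosomes in U2OS, an established human osteosarcoma cell line, that carried an empty vector or overexpressed QKI7, 1 of the protein isoforms that the RNA-binding gene QKI encodes. Cells of both constructs had received 0.5 mM sodium arsenite (NaAsO2), an oxidative stressor, for 1 h before harvest, so no value here separates stressed from unstressed cells. Total input RNA and ribosome footprints of 17 to 34 nt were sequenced from each, with ribosomal RNA depleted before library construction, which gives 2 input and 2 footprint libraries for each construct, or 4 groups in all. Nothing in the labels says that replicate libraries are separate cultures; p-values here measure the spread between libraries, which may be technical.

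Initiation factors bring the initiator tRNA, the small ribosomal subunit and the mRNA cap together and then let the large subunit join; elongation factors deliver the aminoacyl-tRNA and move the ribosome along. In arsenite stress the kinase HRI (EIF2AK1) phosphorylates the alpha subunit of eIF2, which blocks its exchange factor eIF2B and lowers initiation. Many mRNAs of elongation factors and of some eIF3 subunits belong to the TOP class, whose 5′ end is a C followed by a run of pyrimidines and whose translation follows the growth kinase mTORC1.

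Levels are in TPM, the deposited measure of a transcript's share corrected for its length, so input levels can be set against each other between genes. Footprints come from the translated part of an mRNA. Footprint TPM of different genes therefore also depends on how much of the transcript that part makes up. TPM does not retain depth, and the read number behind each value is unknown. Messenger RNA took 3.72% and 3.99% of the TPM in vector inputs and 4.51% and 4.23% in QKI7 inputs. Small non-coding RNA took 79.1% to 82.6% and spike-ins 13.1% to 15.9% of the inputs. In footprints messenger RNA took 0.611% to 0.630% of the TPM, most of which was ribosomal RNA (96.8% to 97.3%). QKI itself stood at 3.01 and 3.45 TPM in vector inputs and at 1749 and 1580 TPM in QKI7 inputs. Of 11 markers of mesenchymal or osteosarcoma cells, 6 were at 1 TPM or more in every input (VIM, SPARC, COL1A1, FN1, CDH2 and CD44), while RUNX2, COL1A2, TWIST1, ALPL and SP7, which include defining osteoblast genes, stayed under 1 TPM; 0 of 13 blood, epithelial and neural markers reached it. In such bulk samples, fewer cells with an RNA and less RNA per cell cannot be told apart.

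Translation factors made up a larger part of the mRNA footprints than of the mRNA, a gap that lay mostly in EEF1A1. With spike-ins, histone genes, ribosomal RNA and small non-coding RNA left out of the total (the mRNA scale), the 63 genes took 1.91% and 1.92% of vector inputs, 1.54% and 1.56% of QKI7 inputs, 2.75% and 2.75% of vector footprints and 2.13% and 2.13% of QKI7 footprints. Their share was thus lower with QKI7 in both library types, with no overlap between the groups. QKI alone took 3.49% ± 0.0913 of the QKI7 inputs (SD, n = 2), and with it left out of the total the 63 genes took 1.92% ± 0.0118 of vector and 1.61% ± 0.0172 of QKI7 inputs. EEF1A1, which delivers aminoacyl-tRNA to the ribosome, accounted for 0.811% ± 0.0179 of vector footprints and 0.585% ± 0.00055 of QKI7 footprints by itself, but for 0.106% ± 0.00045 of vector and 0.0926% ± 0.00326 of QKI7 inputs (SD, n = 2 each). The other 62 genes took 1.81% ± 0.0114 of vector inputs and 1.94% ± 0.0208 of vector footprints, and 1.46% ± 0.0148 and 1.54% ± 0.0008 with QKI7. It was followed in mean footprint TPM by EIF4A1, EIF3K, EEF1D and EIF5A. The order of the means over the 4 inputs was different: EEF2 was first there, EEF1A1 was sixth and EIF3K, the third in footprints, was at rank 24.

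Of the 63 genes, 47 averaged 1 TPM or more over the 8 libraries and entered the test (limma on log2(TPM + 1), Benjamini-Hochberg adjustment over 5806 entries, threshold 0.05). The other 16 lay between 0 and 1.88 TPM in inputs and between 0 and 1.05 TPM in footprints. They are EIF1AX, EIF1AY, EIF2B3, EIF2AK3, EIF3C, EIF4E, EIF4E1B, EIF4E2, EIF4E3, EIF5A2, EIF5AL1, EEF1E1, the read-through transcript EEF1E1-BLOC1S5, EEF1AKMT1, EEF2K and EEF2KMT. Among them 3 were listed at 0 in every footprint library and 1 of these in every library.

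In footprints with QKI7 far more of the factors fell than rose. In inputs the split depended on the processing: it was closer on the deposited scale, where the median of all entries rose. On the mRNA scales and with median-of-ratios scaling or quantile normalization, almost all factors called in inputs were lower. Relative to the median of all entries the factors were lower in both library types. In inputs 7 of the 47 fell and 4 rose, while 5.48% of all 5806 entries fell and 39.1% rose (44.6% in either direction). The median log2 change of the 47 genes was -0.0026 against 0.15 for all entries, a relative change of -0.16. Without vector input library 2 more factors rose than fell in inputs, and the median of all entries was 0.19. With a minimum mean of 0.1 TPM the input split was 7 lower and 7 higher, with 419 of 14490 entries lower and 4815 higher. In footprints 10 fell and 1 rose; of all entries 4.6% fell and 3.6% rose (8.2% in either direction), and the medians were -0.12 and 0.01. Both QKI7 footprint libraries lay below both vector libraries for 28 of the 47 genes and above them for 4, against 22.4% and 30.4% of all entries. For inputs these numbers were 16 and 12, against 11.6% and 57.8%. Over all 63 genes, 33 had QKI7 footprints below and 4 above the vector libraries. Translation efficiency, the change in footprints minus the change in inputs, was lower for 8 genes and higher for 2, and of all entries 21.6% were lower and 3.57% higher (25.2% in either direction). Its median was -0.15 for the factors and -0.16 for all entries, which leaves a relative change of 0.0068.

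How many genes passed depended on the scale of the values. The median of all entries in inputs moved from 0.15 on the deposited scale to 0.07 on the mRNA scale and to -0.07 on a narrower mRNA scale, which keeps 2793 genes that average 1 TPM or more in inputs and 0.2 TPM or more in footprints. On the mRNA scale 4 factors fell and 0 rose in inputs, with 0.546% of all genes lower and 0.048% higher (0.594% in either direction). These 4 were EEF1A2, EEF2, EIF4A1 and EIF5A. In footprints 16 fell and 2 rose on that scale, with 3.98% of all genes lower and 8.03% higher (12% in either direction). In translation efficiency 0 fell and 2 rose, with 0.282% lower and 1.18% higher (1.46% in either direction). On the narrower scale 12 of 44 factors fell and 0 rose in inputs, with 7.91% of all genes lower and 0.967% higher (8.88% in either direction). In footprints 20 fell and 2 rose there, with 21.1% lower and 13.7% higher (34.8% in either direction). In translation efficiency 4 fell and 3 rose, with 3.8% lower and 8.16% higher (12% in either direction). With median-of-ratios scaling 22 fell and 1 rose in inputs, with 17.3% of all entries lower and 18.3% higher. With quantile normalization 15 fell and 1 rose, with 15.6% lower and 18.8% higher. In translation efficiency the splits were 5 lower to 4 higher with median-of-ratios scaling (10.7% and 8.77% of all entries) and 4 to 3 with quantile normalization (10.8% and 7.91%). The median of the factors in inputs and in footprints stayed below that of all entries on each of these scales.

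**Figure D1:**
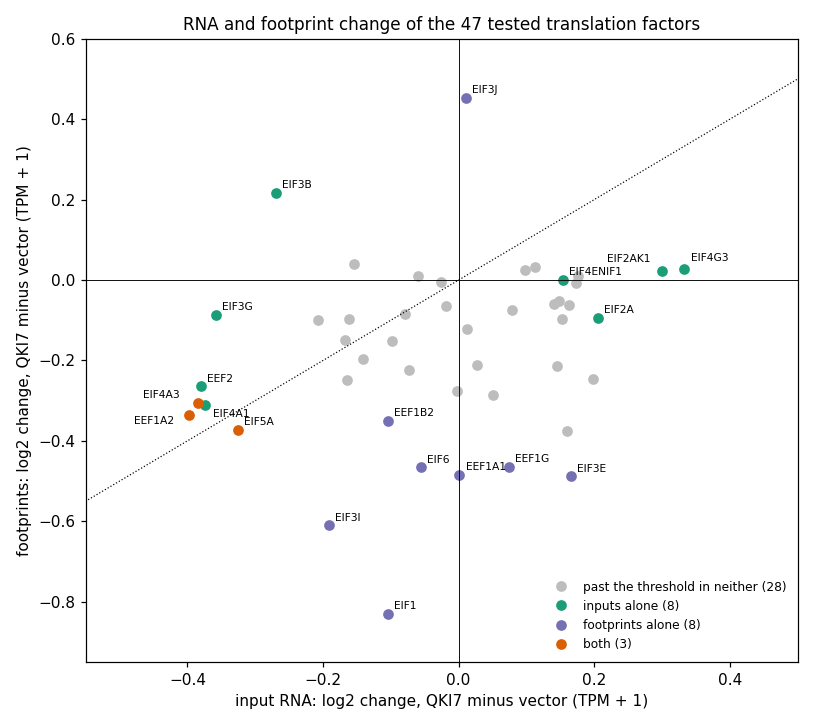
Log2 change with QKI7 in input RNA (horizontal) and in footprints (vertical), on the log2(TPM + 1) scale, for the 47 tested translation factors; colours give the comparison in which a gene passed the threshold and the dotted line marks equal change. The threshold was passed in both by 3 genes. EIF1 lies lowest at -0.83 and EIF3J highest at 0.45 in footprints, with input changes of -0.10 and 0.01.

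On the deposited scale 3 of the 11 factors that passed in inputs also passed in footprints. All 4 that fell in inputs on the mRNA scale also fell in footprints, and 8 of 12 did on the narrower scale. On the deposited scale EEF1A2, EIF4A3 and EIF5A fell in both, and their translation efficiency did not pass (adjusted p = 0.680, 0.606 and 0.751). EEF1A1, EEF1G, EIF1, EIF3E and EIF3I fell in footprints and in translation efficiency with no call in inputs on that scale. On the narrower mRNA scale EEF1G, EIF1 and EIF3E kept this pattern. There EEF1A1 also fell in inputs (-0.19, limma, adjusted p = 0.0272), and EIF3I did not pass in translation efficiency (-0.47, adjusted p = 0.119). EIF3J rose in footprints and in translation efficiency. EIF3B fell in inputs and rose in translation efficiency. Of the 47 tested genes, 27 passed in none of the 3 comparisons on the deposited scale. Over all entries 44.6% passed in inputs, 8.2% in footprints and 25.2% in translation efficiency. The overlap of calls over all entries is not given here, so the overlap counts of the factors have no background.

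EIF1, the factor that guards start codon choice on the small subunit, had the largest footprint change of the 47 genes. It lies on chromosome 17 (41688885 to 41692668, GRCh38). Its footprints stood at 11.1 and 10.4 TPM in the vector libraries and at 5.14 and 6.07 TPM in the QKI7 libraries. The groups did not overlap, and the vector mean was 1.91 times the QKI7 mean. Its input RNA was 12.7 and 13.3 TPM with vector and 12.2 and 11.8 TPM with QKI7, which also did not overlap, with a QKI7 mean 0.925 times the vector mean. The footprint log2 change was -0.83 (SE 0.089, adjusted p = 0.00159, limma), that of the input -0.10 (adjusted p = 0.366) and that of translation efficiency -0.73 (SE 0.126, adjusted p = 0.0116). EIF1 passed in footprints with any of the 8 libraries left out, with log2 changes between -0.93 and -0.73. On the mRNA scale its translation efficiency had an adjusted p = 0.0724. Its paralog EIF1B was lower throughout, with footprints of 1.60 and 1.60 TPM in vector and 0.88 and 1.14 TPM in QKI7 cells, a log2 change of -0.37 that did not pass (adjusted p = 0.131). The scanning factor EIF1AX and its domain relative EIF1AD had footprints of at most 0.32 TPM.

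The eIF2 trimer, which carries the initiator tRNA, had no member past the threshold in any of the 3 comparisons on the deposited scale. EIF2S1, the alpha subunit that the stress kinases phosphorylate, had input RNA of 2.43 and 2.59 TPM with vector and 2.63 and 2.38 TPM with QKI7. Its footprints were 1.22 and 1.67 against 1.02 and 1.00 TPM (log2 change -0.28, adjusted p = 0.116); on the narrower mRNA scale this fall passed (-0.47, adjusted p = 0.0441). The inputs overlapped and the footprints did not. EIF2S2 and EIF2S3, the beta and gamma subunits, had footprint changes of -0.15 and -0.10 (adjusted p = 0.454 and 0.583). None of the 4 tested eIF2B subunits passed either, with footprint changes from -0.10 to 0.02.

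Among the 4 kinases of eIF2 alpha, EIF2AK1 rose in inputs. HRI, its product, responds to arsenite. Its RNA was 4.82 and 5.53 TPM with vector and 6.76 and 6.43 TPM with QKI7 (log2 change 0.30, SE 0.072, adjusted p = 0.0120), without overlap. It did not pass without vector input library 1 or without QKI7 input library 1 (adjusted p up to 0.0677). This rise was 0.15 above the median of all entries; on the mRNA scale the change was 0.16 and did not pass (adjusted p = 1). Its footprints were 0.22 and 0.18 against 0.26 and 0.18 TPM, which overlapped. EIF2AK2, the kinase PKR, and EIF2AK4, the kinase GCN2, had input changes of 0.14 and 0.11 that did not pass (adjusted p = 0.185 and 0.277). EIF2AK3, the kinase PERK, was below the test minimum, with inputs of 1.03 and 1.37 TPM in vector and 1.88 and 1.55 TPM in QKI7 cells. No kinase had a footprint level above 0.26 TPM.

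EIF2A and EIF2D can bring tRNA to the ribosome without eIF2. EIF2A had input RNA of 2.40 and 2.17 TPM with vector and 2.83 and 2.74 TPM with QKI7 (log2 change 0.21, adjusted p = 0.0309), a call lost without 5 of the 8 libraries in turn, 3 of them inputs (adjusted p up to 0.105). Its translation efficiency was lower by that fit (-0.30, adjusted p = 0.0436), with footprints of 0.15 and 0.23 against 0.08 and 0.15 TPM, which met at 0.15 TPM. That call rests on footprints that lie near the pseudocount of 1 and near the rounding of the file, and it passed with only 1 of the 8 libraries left out. EIF2D had changes of -0.02 in inputs and -0.07 in footprints.

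**Figure D2:**
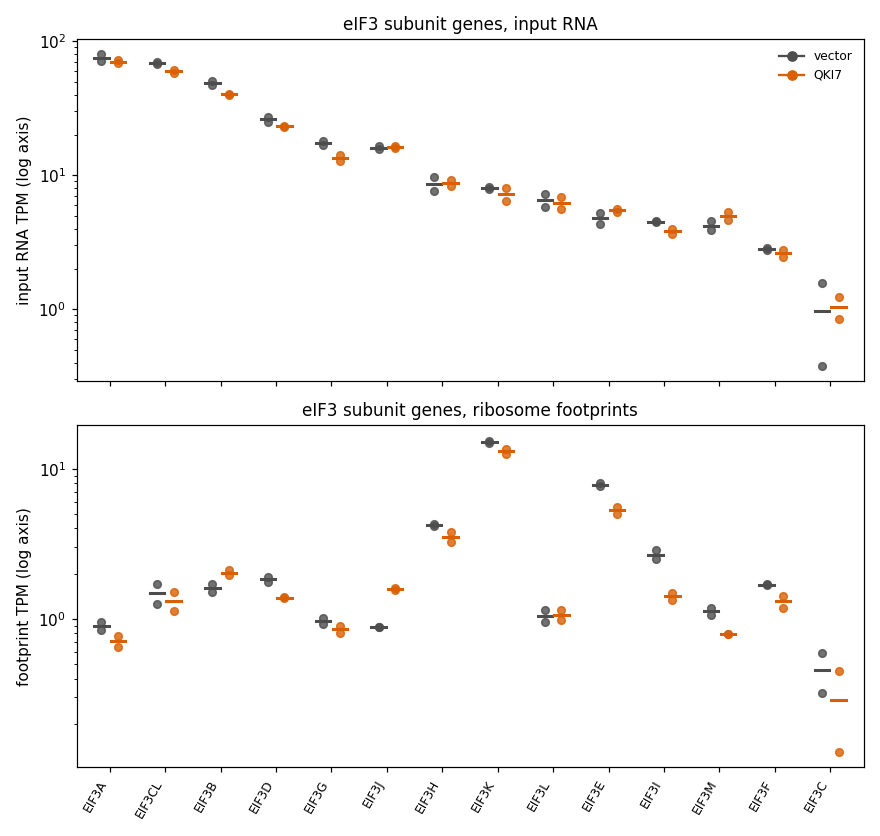
TPM of the 14 eIF3 subunit genes in input RNA (top) and footprints (bottom), on log axes; points are libraries, bars are means of 2, and genes are ordered by their vector input mean. The order of the inputs, from 75.7 TPM for EIF3A to 0.975 TPM for EIF3C, is not the order of the footprints, in which EIF3K is highest at 15.1 TPM.

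The eIF3 complex, the scaffold that holds the small subunit and the mRNA together, spanned a wide range of levels among its own subunits. Vector input means ran from 0.975 TPM (EIF3C) to 75.7 TPM (EIF3A) with a median of 8.34 TPM over 14 genes. Vector footprint means ran from 0.455 TPM (EIF3C) to 15.1 TPM (EIF3K). EIF3C and EIF3CL are near-identical copies between which reads can be split, so neither value is certain; their sum was 70.1 ± 2.65 TPM in vector and 60.8 ± 2.23 TPM in QKI7 inputs (SD, n = 2 each). In footprints the sum was 1.94 ± 0.127 and 1.61 ± 0.0566 TPM.

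EIF3J, a loosely bound subunit at the decoding site, was the 1 factor whose footprints rose on the deposited scale. The gene lies on chromosome 15 (44537147 to 44562803). Its footprints were 0.88 and 0.88 TPM with vector and 1.55 and 1.60 TPM with QKI7, a ratio of 1.79. The groups were far apart relative to their spread. Its input RNA was 15.6 and 16.6 TPM against 16.6 and 15.9 TPM, which overlapped. The footprint log2 change was 0.45 (SE 0.064, adjusted p = 0.00450) and that of translation efficiency 0.44 (SE 0.091, adjusted p = 0.0165). On the mRNA scale, where the pseudocount weighs less, these were 0.86 and 1.04 (adjusted p = 0.00229 and 0.0124). The footprint call held with any of the 8 libraries left out, and the translation efficiency call was lost without any 1 of the 4 footprint libraries (adjusted p up to 0.0631). The antisense transcript EIF3J-AS1 had footprints of 0.03 and 0.07 TPM with vector and 0.11 and 0.12 TPM with QKI7. The sources used here do not give the strand setting of the counting, so reads of the gene and of its antisense partner cannot be told apart.

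EIF3I and EIF3E fell in footprints. EIF3I, a WD-repeat subunit, had footprints of 2.86 and 2.50 TPM with vector and 1.49 and 1.33 TPM with QKI7. The vector mean was 1.90 times the QKI7 mean (log2 change -0.61, SE 0.074, adjusted p = 0.00260), and the call held with any library left out. Its translation efficiency change of -0.42 (adjusted p = 0.0277) passed with only 2 of the 8 libraries left out. Its input RNA was 4.55 and 4.46 against 3.65 and 4.0 TPM, also without overlap (log2 change -0.19, adjusted p = 0.0669). EIF3E, a PCI-domain subunit, had footprints of 7.67 and 8.0 TPM with vector and 5.60 and 5.01 TPM with QKI7 (log2 change -0.49, SE 0.093, adjusted p = 0.0167). Its input RNA was 4.33 and 5.27 against 5.36 and 5.61 TPM, so on the deposited scale the inputs lay in the other direction. That input change was 0.17, near the median of all entries (0.15), and it was 0.0045 on the mRNA scale. Its translation efficiency change was -0.65 (adjusted p = 0.0159), and -0.54 on the mRNA scale (adjusted p = 0.130). The footprint call for EIF3E was lost without either vector footprint library and without QKI7 footprint library 2 (adjusted p up to 0.0941).

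EIF3B, the core RNA-binding subunit, moved in opposite directions in RNA and footprints. Its input RNA was 46.99 and 50.15 TPM with vector and 40.3 and 39.9 TPM with QKI7 (log2 change -0.27, SE 0.078, adjusted p = 0.0259). Its footprints were 1.5 and 1.71 against 2.10 and 1.95 TPM (log2 change 0.22, adjusted p = 0.164). Neither pair of groups overlapped. The translation efficiency change was 0.49 (SE 0.111, adjusted p = 0.0220), and on the mRNA scale 0.83 (adjusted p = 0.0333), where the footprint rise also passed (0.36, adjusted p = 0.0370). The translation efficiency call was lost without any 1 of the 4 footprint libraries or QKI7 input library 1 (adjusted p up to 0.0865), and the input call without vector input library 2 or either QKI7 input library (adjusted p up to 0.0890). EIF3G, an RNA-recognition subunit, fell in inputs from 16.9 and 18.1 TPM to 14.1 and 12.8 TPM (log2 change -0.36, adjusted p = 0.00738). EIF3M, another PCI-domain subunit, passed in translation efficiency (-0.45, adjusted p = 0.0307), with footprints of 1.19 and 1.06 against 0.79 and 0.79 TPM and inputs of 3.89 and 4.53 against 5.30 and 4.65 TPM; it also passed with only 2 of the 8 libraries left out. In all, 2 of the 13 tested eIF3 genes fell in inputs and 0 rose, against 5.48% and 39.1% of all entries. In footprints 2 fell and 1 rose, against 4.6% and 3.6%. In translation efficiency 3 fell and 2 rose, against 21.6% and 3.57%, so the part that fell was near that of all entries.

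Among the genes named EIF4, RNA of 2 helicases fell and that of 1 scaffold and of the eIF4E transporter rose. Of all entries 5.48% fell and 39.1% rose in inputs. EIF4A1, the helicase that unwinds leaders of mRNAs, had input RNA of 20.7 and 21.9 TPM with vector and 17.5 and 15.0 TPM with QKI7 (log2 change -0.37, SE 0.096, adjusted p = 0.0156), a call lost without vector input library 2 or QKI7 input library 2 (adjusted p up to 0.0655). Its footprints were 15.0 and 16.5 against 12.6 and 12.3 TPM, which did not overlap but did not pass (log2 change -0.31, adjusted p = 0.102); on the mRNA scale they did (-0.31, adjusted p = 0.0322). EIF4A3, a helicase of the exon junction complex, fell in both library types (log2 changes of -0.38 and -0.31, adjusted p = 0.00576 and 0.0485), with inputs of 6.03 and 6.10 against 4.22 and 4.61 TPM. Its footprints of 1.59 and 1.30 against 0.92 and 1.03 TPM passed by little, and with any of the 8 libraries left out they did not (adjusted p up to 0.296). EIF4A2, the paralog of EIF4A1, had inputs of 21.9 and 25.4 against 27.1 and 25.3 TPM, which overlapped, and no call. The helicase cofactors EIF4B and EIF4H had footprint changes of 0.01 and -0.01.

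The scaffold EIF4G3 rose in inputs, from 4.31 and 4.74 TPM to 6.09 and 5.81 TPM (log2 change 0.33, SE 0.060, adjusted p = 0.00419). Its footprints were 0.03 and 0.06 against 0.08 and 0.05 TPM, close to the rounding of the file and overlapping. Its translation efficiency, -0.30 on the deposited scale (adjusted p = 0.0358), was 0.32 on the mRNA scale (adjusted p = 0.795), so it has no settled direction. Its paralog EIF4G1 had 37.4 and 39.9 TPM in vector and 34.2 and 35.0 TPM in QKI7 inputs (log2 change -0.15, adjusted p = 0.0954). Its footprints were 0.76 and 0.75 against 0.80 and 0.81 TPM (log2 change 0.04, adjusted p = 0.928). The eIF4E transporter EIF4ENIF1 rose in inputs from 3.31 and 3.20 TPM to 3.74 and 3.73 TPM (log2 change 0.15, adjusted p = 0.0467), a change equal to the median of all entries, and it passed with none of the 8 libraries left out. The cap-binding protein genes EIF4E and EIF4E2 were below the test minimum, with footprints of 0.76 and 0.68 against 0.71 and 0.65 TPM for EIF4E and of 0.80 and 0.85 against 0.68 and 0.65 TPM for EIF4E2.

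Among the genes named EIF5 or EIF6, EIF5A and EIF6 fell in footprints on the deposited scale. EIF5A, which relieves ribosomes stalled at proline-rich stretches, had footprints of 9.97 and 9.49 TPM with vector and 7.29 and 7.29 TPM with QKI7 (log2 change -0.37, SE 0.071, adjusted p = 0.0164). Its inputs were 12.1 and 12.8 against 9.72 and 9.70 TPM (log2 change -0.33, SE 0.071, adjusted p = 0.00821), so RNA and footprints moved together. The footprint call was lost without any 1 of the 4 footprint libraries (adjusted p up to 0.111). EIF5AL1, a near-identical copy that can take some of its reads, was at 0.20 TPM or less. EIF6, which keeps the ribosomal subunits apart, had footprints of 2.79 and 3.04 against 1.59 and 2.10 TPM (log2 change -0.47, SE 0.092, adjusted p = 0.0192), and inputs of 2.32 and 2.62 against 2.34 and 2.33 TPM, which overlapped. Without either vector footprint library or without QKI7 footprint library 1, EIF6 did not pass (adjusted p up to 0.109). EIF5, the GTPase activator of eIF2, and EIF5B, which joins the subunits, had footprint changes of -0.28 and -0.12 on the deposited scale (adjusted p = 0.0849 and 0.426). On the mRNA scale both fell (-0.82 and -0.27, adjusted p = 0.0197 and 0.0378); footprints of EIF5 were 0.58 and 0.75 TPM with vector and 0.34 and 0.39 TPM with QKI7, without overlap. The paralog EIF5A2 stayed at or below 0.87 TPM in all libraries.

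**Figure D3:**
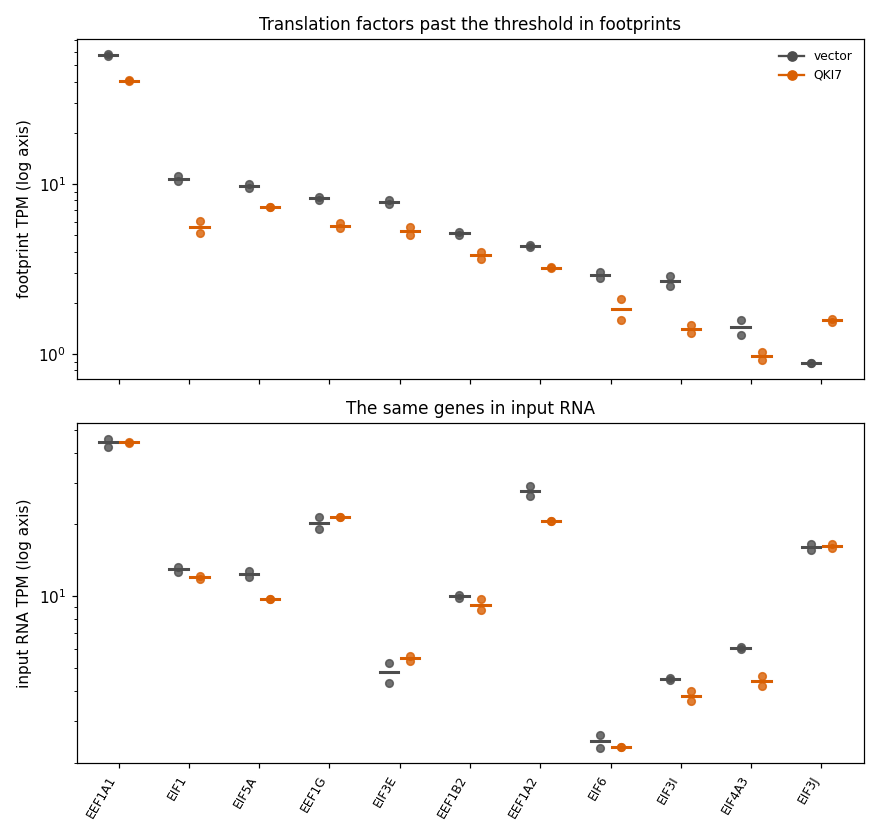
TPM of the 11 translation factors that passed the threshold in footprints (top) and of the same genes in input RNA (bottom), on log axes; points are libraries and bars are means of 2. In footprints the 2 QKI7 libraries lie below both vector libraries for 10 genes and above them for EIF3J, while in inputs the groups overlap for EEF1A1, EEF1G, EIF3J and EIF6.

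In the eEF1 complex 4 of 5 tested genes fell in footprints, against 4.6% of all entries. EEF1A1 had footprints of 58.0 and 56.5 TPM with vector and 40.4 and 40.9 TPM with QKI7 (log2 change -0.48, SE 0.084, adjusted p = 0.0113). Its input RNA was 42.5 and 45.9 against 44.5 and 43.8 TPM, a log2 change of 0.0012. The footprints did not overlap and the inputs did. On the narrower mRNA scale its input RNA fell (-0.19, limma, adjusted p = 0.0272). The translation efficiency change of -0.49 (SE 0.119, adjusted p = 0.0265) was -0.28 on the mRNA scale (adjusted p = 0.0603). EEF1A2, the paralog usually found in muscle and nerve, was present at 26.3 and 29.0 TPM in vector and 20.7 and 20.7 TPM in QKI7 inputs (log2 change -0.40, SE 0.075, adjusted p = 0.00493). Its footprints were 4.25 and 4.40 against 3.20 and 3.24 TPM (log2 change -0.34, adjusted p = 0.0327).

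The exchange subunits recharge eEF1A with GTP. EEF1G, the gamma subunit, had footprints of 8.43 and 8.05 against 5.49 and 5.91 TPM (log2 change -0.46, SE 0.082, adjusted p = 0.0119) and inputs of 19.2 and 21.5 against 21.5 and 21.4 TPM. EEF1B2, the beta subunit, had footprints of 5.03 and 5.23 against 3.63 and 3.99 TPM (log2 change -0.35, adjusted p = 0.0327). EEF1D, the delta subunit, had 10.1 and 11.6 against 10.6 and 9.80 TPM, which overlapped, and did not pass (adjusted p = 0.804). For EEF1A1, EEF1A2 and EEF1B2 the footprint call was lost without any 1 of the 4 footprint libraries, and for EEF1G without 3 of them (adjusted p up to 0.195 over these genes). The call for EEF1B2 was also lost without either vector input library, that for EEF1A2 without QKI7 input library 1, and the translation efficiency call for EEF1A1 without any 1 footprint library or vector input library 1 (adjusted p up to 0.0890).

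EEF2, the translocase that moves the ribosome forward, had the highest mean RNA level of the 63 genes in vector inputs and fell with QKI7, where EIF3A was higher. Its inputs were 81.1 and 86.8 against 65.7 and 62.8 TPM (log2 change -0.38, SE 0.082, adjusted p = 0.00804). Its footprints were 3.78 and 3.91 against 3.18 and 2.89 TPM, without overlap (log2 change -0.26, adjusted p = 0.103), and passed on the mRNA scale (-0.32, adjusted p = 0.0246). EEF2K, the kinase that inactivates eEF2, was below the test minimum, with inputs of 0.91 and 1.05 against 1.25 and 1.14 TPM.

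The start of the mRNA is the part that defines the TOP class, and it is shown for EEF1A1, EEF1B2, EEF1G and EEF2, which are TOP genes that passed a threshold on the deposited scale, and for EIF1, EIF3I and EIF3J, whose footprint calls held with any library left out. EIF3E, the other TOP gene that passed, is named only. Each line gives 10 bases before and 20 from the annotated RefSeq start (GRCh38.p14); capitals mark the longest run of C or T that overlaps positions 1 to 5 of the transcript. The windows are EEF1A1 at chr6:73521013-73521042 (minus strand), EEF1B2 at chr2:206159885-206159914 (plus), EEF1G at chr11:62573872-62573901 (minus), EEF2 at chr19:3985444-3985473 (minus), EIF1 at chr17:41688875-41688904 (plus), EIF3I at chr1:32222397-32222426 (plus) and EIF3J at chr15:44537137-44537166 (plus).
EEF1A1: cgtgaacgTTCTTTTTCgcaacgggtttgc
EEF1B2: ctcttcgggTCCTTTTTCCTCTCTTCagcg
EEF1G: cgggcggcttaCTTTgcggcagcgccgaga
EEF2: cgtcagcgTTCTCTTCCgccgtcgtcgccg
EIF1: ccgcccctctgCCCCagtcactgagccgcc
EIF3I: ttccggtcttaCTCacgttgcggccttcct
EIF3J: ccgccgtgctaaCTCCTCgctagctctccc
EEF1A1, EEF1B2 and EEF2 start with C and at least 5 pyrimidines, whereas EEF1G, EIF3I and EIF3J are annotated to start with A and EIF1 with G. EEF1B2 has 2 annotated starts, of which the one with the longer run is shown.

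A start with C and at least 5 pyrimidines, at any annotated start of a gene, was found in 12 of the 51 factors that the promoter table holds, or 23.5%, against 6.33% of 14270 protein-coding genes of the deposited table and 5.14% of all 27305 genes with a start. The 12 genes are EEF1A1, EEF1B2, EEF2, EIF2A, EIF2D, EIF2S3, EIF3D, EIF3F, EIF3K, EIF3M, EIF4A2 and EIF4B. Of these, 2 fell in footprints and 0 rose (against 4.6% and 3.6% of all entries), with a median log2 change of -0.22. Of the 25 tested factors without such a start, 6 fell and 1 rose, with a median of -0.07. In inputs the medians were -0.01 and 0.01, and in translation efficiency -0.21 and -0.15. The ranges overlapped in each comparison: footprint changes ran from -0.48 to 0.01 with the feature and from -0.83 to 0.45 without it. By a list of 11 known TOP mRNAs among the factors, 4 fell in footprints (EEF1A1, EEF1B2, EEF1G and EIF3E) and 0 rose, against 6 lower and 1 higher of 36 others. For comparison, 50 of 75 cytosolic ribosomal protein genes, the best known TOP mRNAs, fell in footprints and 45 fell in inputs. Of all entries 4.6% fell in footprints and 5.48% in inputs. On the deposited scale the TOP genes among the factors thus had 1 call in inputs (EEF2) beside 4 in footprints.

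Footprint and RNA levels of the factors stood in very different ratios to each other. This comparison was made within each construct on the narrower mRNA scale, with every library centred on the median of its genes, and 44 factors could be tested. The footprint minimum of that scale leaves out factors with few footprints, such as EIF4G3 and EIF2AK4. In vector cells 25 had more and 14 fewer footprints for their RNA than the centre, with 79.5% of all 2793 genes past the threshold (43.9% higher and 35.6% lower). In QKI7 cells these numbers were 23 and 13, with 75.5% of all genes past it (40.9% higher and 34.7% lower). Without centring the split in vector cells was 18 higher and 16 lower. The median of the factors was 0.45 in vector and 0.55 in QKI7 cells, against 0.21 and 0.15 for all genes. Input RNA and footprints are different kinds of library, so a ratio describes the libraries of a gene and not an absolute rate. Between genes it also varies with the translated part of the transcript, which was not corrected for.

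Among the 44 tested factors, those with the highest ratios in vector cells were EIF3K (4.01, log2), EIF3E (3.81), EEF1A1 (3.48), EIF6 (3.33) and EIF1 (2.83). EIF3K, the smallest eIF3 subunit, had 15.3 and 14.9 TPM in vector footprints against 7.94 and 8.13 TPM in inputs. The lowest were EIF3A (-3.28), EIF4G1 (-2.56), EIF3CL (-2.44), EIF5B (-2.19) and EIF3B (-1.81). EIF3A, the largest subunit of eIF3, had 0.96 and 0.84 TPM in vector footprints against 71.5 and 79.9 TPM in inputs. Each of these 10 passed the threshold in both constructs (limma, Benjamini-Hochberg adjusted p of at most 8.18e-06). Subunits of a complex whose members are joined in fixed numbers thus lay at both ends of the tested factors: the eIF3 genes ran from -3.28 to 4.01. The minimum levels shape the ends of this order. By mean footprint over mean input on the mRNA scale in vector cells, the untested EIF4G3 (0.0588) and EIF2AK4 (0.0670) lay below EIF3A (0.0704). By that measure EIF4E2 (6.19), also untested, lay above EIF1 (4.88).

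**Figure D4:**
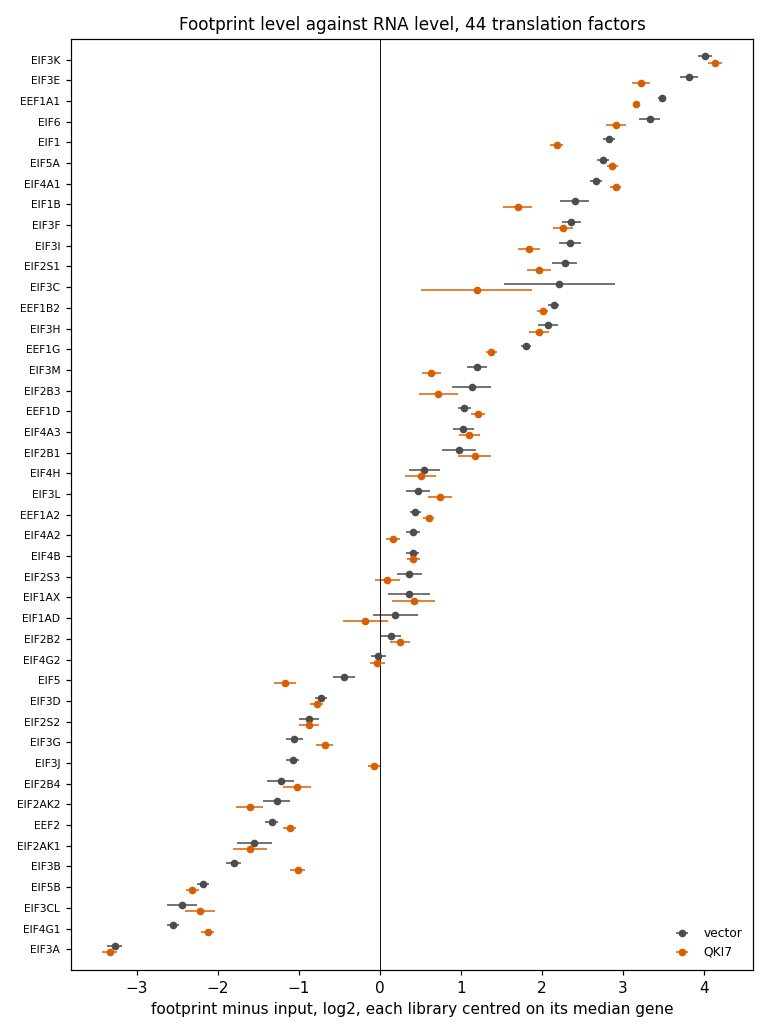
Footprint level minus input level (log2, each library centred on its median gene, narrower mRNA scale) for 44 translation factors in vector and QKI7 cells, ordered by the vector value; horizontal bars are standard errors from limma. The order was largely kept between constructs, with EIF3K highest and EIF3A lowest in both, and EIF3J moved from -1.08 to -0.08.

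With QKI7, EIF3J went from -1.08 (adjusted p = 2.11e-06) to -0.08 (adjusted p = 0.399), which the test did not tell apart from 0. Relative to the median ratio of all genes it went from -1.28 to -0.22. The ratio of its mean footprint to its mean input on the mRNA scale was 0.323 in vector cells (0.320 to 0.326 over each footprint library set against each input library) and 0.667 in QKI7 cells (0.651 to 0.683). That of EIF3B was 0.195 (0.183 to 0.208) against 0.347 (0.323 to 0.372). That of EIF1 was 4.88 (4.65 to 5.12) against 3.21 (2.91 to 3.52). The ranges of the 2 constructs did not overlap for any of these 3 genes. All 3 already had translation efficiency calls on the deposited scale from the same libraries, so these ranges add no test. The tests of the difference are the translation efficiency values given above. On the mRNA scale that of EIF1 did not pass (limma, adjusted p = 0.0724).

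The paralog pairs differed widely in level. EEF1A1 footprints exceeded those of EEF1A2 by 57.2 ± 1.05 to 4.33 ± 0.106 TPM in vector cells (SD, n = 2 each), while their RNA stood at 44.2 ± 2.42 and 27.6 ± 1.89 TPM. With QKI7 the footprints of both fell, and the RNA of EEF1A2 alone passed; the difference between the 2 genes was not tested. EIF4A1 and EIF4A2 had similar RNA in vector cells, 20.7 and 21.9 against 21.9 and 25.4 TPM, but footprints of 15.0 and 16.5 against 3.46 and 3.81 TPM.

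A few partners of these factors outside the name rule passed in footprints on the mRNA scales, and none did on the deposited scale. EIF4EBP1, a repressor of eIF4E downstream of mTORC1, had inputs of 2.77 and 2.25 against 2.47 and 1.74 TPM and footprints of 0.72 and 1.15 against 0.52 and 0.51 TPM. On the deposited scale it passed in no comparison (adjusted p = 0.307, 0.216 and 0.557), and on the narrower mRNA scale it fell in footprints (-0.79). On the mRNA scale the footprint change was also -0.79 and did not pass (limma, adjusted p = 0.112). EIF4EBP2 and EIF4EBP3 had footprints of at most 0.01 TPM. In inputs on the deposited scale, where 39.1% of all entries rose, 1 of 3 tested termination and recycling genes rose (the release factor ETF1, 0.27) and so did 3 of 8 mTORC1 and MNK signalling genes, shares near that of all entries. Of 9 poly(A) and cap helper genes 3 rose and 1 fell (the poly(A)-binding protein inhibitor PAIP2, -0.28). DHPS, whose enzyme modifies eIF5A, rose as well (0.37, limma, adjusted p = 0.0197). In inputs on the mRNA scale 0 genes of these lists passed. In translation efficiency, where 21.6% of all entries were lower, ETF1 (-0.47, adjusted p = 0.0157), the helicase DDX3X (-0.57, adjusted p = 0.0165) and the mTORC1 subunit MLST8 (-0.27, adjusted p = 0.0389) fell. These 3 did not pass on the mRNA scale (adjusted p = 0.150, 0.150 and 0.965), and MLST8 stood at 0.05. In footprints 0 genes of these lists passed on the deposited scale. On the mRNA scale 12% of all genes passed in footprints (3.98% lower and 8.03% higher), and most genes of these lists did not. There ETF1 (-0.88, adjusted p = 0.0428), the reinitiation factor DENR (-0.63, adjusted p = 0.0425) and the stress transcription factor ATF4 (-0.25, adjusted p = 0.0217) fell. LARP1, which binds TOP mRNAs, rose (0.48, adjusted p = 0.0246).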

How the data were processed

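The authors deposited 1 table of TPM for 26902 genes and RNAs in 8 libraries; STAR, RSEM 1.2.31 and GRCh38 are named per the submitters' processing notes, and the strand setting is not given here by any source used. TPM was tested as log2(TPM + 1) with limma 3.58.1 in R 4.3.3 (lmFit, eBayes with a variance trend) on the 5806 entries averaging 1 TPM or more, as 4 group means (residual degrees of freedom: 4). P-values are two-sided and Benjamini-Hochberg adjusted over all entries, with a threshold of 0.05. The pseudocount shrinks changes of low values, footprints most. For 2 libraries against 2, the smallest p of an exact permutation test is 0.333, and limma's calls use variance shared between genes. The mRNA scale removes 2648 entries (spike-ins, histone genes, ribosomal and small non-coding RNA) and rescales the rest. The fit was tested on simulated data. Same-numbered libraries were checked for pairing over 6 pairs of groups (correlations of deviations -0.0881 to 0.125) and are not treated as pairs. Members, lists and the rule for named genes were chosen with earlier results of these data known. Named genes are those past a threshold, the 5 highest and 5 lowest footprint-to-input ratios, the 5 highest footprint means, the eIF2 alpha kinases, the 4E-BPs and paralog pairs. Sequences are from RefSeq (GRCh38.p14). Alternatives covered scale, normalization, pseudocount, filter, replicate block and each library left out. Protein sequences were not used here.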

Additional observations from a re-analysis of the deposited data

Results flagged for a closer look

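For 10 factors the effect of QKI7 differed between the library types by the interaction term of limma, which is the translation efficiency change (log2, footprints minus inputs, Benjamini-Hochberg adjusted over 5806 entries, 2 libraries per group). Of these, 8 were negative: EIF1 at -0.73, EIF3E at -0.65, EEF1G at -0.54, EEF1A1 at -0.49, EIF3M at -0.45, EIF3I at -0.42, EIF4G3 at -0.30 and EIF2A at -0.30. EIF3B at 0.49 and EIF3J at 0.44 were positive. Over all entries 25.2% passed this test, and the median of all entries was -0.16, so EIF4G3 and EIF2A lay 0.14 below it and EIF1 0.57 below it. EIF1 alone of the 10 passed with each of the 8 libraries left out in turn. EIF3J alone passed under each of the 8 other settings tried, among them the scale, the pseudocount and the filter.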

How the results depend on the processing

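The number of factors past the threshold depended on the processing. In inputs, 11 passed as reported, 4 on the mRNA scale, 23 with median-of-ratios scaling, 1 with a pseudocount of 0.1, and 7 to 12 with 1 library left out. In footprints, 11 passed as reported, 18 on the mRNA scale, 22 on the narrower scale, 19 with median-of-ratios scaling, 6 with a minimum mean of 0.1 TPM, 6 with no filter, and 3 to 10 with 1 library left out. In translation efficiency, 10 passed as reported, 2 on the mRNA scale, 2 with a pseudocount of 0.1, 5 with no filter, and 1 to 13 with 1 library left out. The counts over all entries moved as well. In inputs, of 5806 entries, 318 fell and 2269 rose as reported. With median-of-ratios scaling these were 1007 and 1062, and with a pseudocount of 0.1 they were 81 and 294. In footprints 267 fell and 209 rose as reported, and 112 and 154 of 23707 did with no filter. In translation efficiency 1254 fell and 207 rose as reported, against 113 and 104 with a pseudocount of 0.1. The cause was not tested. The median change relative to all entries was -0.16 in inputs (-0.24 on the mRNA scale and -0.034 with no filter) and -0.14 in footprints. The latter was -0.34 on the mRNA scale, -0.18 on the narrower scale, -0.10 with quantile normalization, -0.17 with median-of-ratios scaling, -0.32 with a pseudocount of 0.1, -0.096 with no filter, and -0.17 to -0.14 with 1 library left out. The relative median of translation efficiency, 0.0068, has no settled sign: it was -0.093 on the mRNA scale, -0.013 on the narrower scale, -0.0022 with median-of-ratios scaling, -0.071 with a pseudocount of 0.1, -0.024 with a minimum mean of 0.1 TPM, -0.097 with no filter, and -0.0048 to 0.039 with 1 library left out. EIF4ENIF1 in inputs turned to -0.017 with quantile normalization and -0.0039 with median-of-ratios scaling, and EIF4G3 in translation efficiency to 0.32 on the mRNA scale. With inputs scaled to the spike-ins, 9 of the 11 input calls stayed. The median of all 5806 entries in inputs was then 0.11, with 311 lower and 1470 higher.

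Of the called factors, 6 of 11 in inputs, 3 of 11 in footprints (EIF1, EIF3I and EIF3J) and 1 of 10 in translation efficiency (EIF1) passed with each library left out in turn; 0 changed sign. With the replicate number as a block, 9, 8 and 8 factors passed in inputs, footprints and translation efficiency, and 39 and 37 in footprint against input for vector and QKI7 cells; 2, 3 and 3 of the calls in the first 3 comparisons were lost. Where an arm was left with 1 library, that library was assumed to vary like the other groups. TPM carries no depth, so no counting error can be given, and footprints under about 0.2 TPM lie near the rounding of the file.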
